A study of Homo sapiens with 16 samples.

Results

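The genes described here are 44 genes of DNA replication and nucleotide synthesis, read out in U251 and U343 glioblastoma cells after transfection with miR-137 mimics. They were taken by symbol from the deposited read counts, and all 44 were found among the 20314 genes of the U251 tables and the 20626 genes of the U343 tables. All 44 also passed the filter on low counts in every comparison below. U251 and U343 are established human glioma lines, and miR-137 is a microRNA that is abundant in brain. Cells of either line received miR-137 mimics or control mimics at 25 nM by reverse transfection and were collected after 48 hours. Total RNA (RNASeq) and RNA pulled down with antibodies to poly(A) binding protein, PABP (RIPSeq), were sequenced after either transfection, which gives 4 experiments with 2 control and 2 miR-137 libraries each. No genotype was altered, and both mimics were delivered with the same lipid reagent. The labels do not say whether the 2 libraries of a group came from separate transfections, so the p-values below measure the spread between these libraries only.

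Cells copy their genome in a fixed order of steps. Origins are licensed by loading the MCM helicase with the help of CDC6 and CDT1, the kinase CDC7 with its partner DBF4 and the GINS complex then turn on the helicase, and polymerases alpha, delta and epsilon copy the strands behind it. PCNA is the ring that holds the polymerases on DNA, ribonucleotide reductase (RRM1 and RRM2), thymidylate synthase (TYMS) and thymidine kinase (TK1) supply deoxynucleotides, and CHAF1A and CHAF1B place histones on the new DNA. Transcription of many of these genes rises as cells enter S phase, under E2F factors bound at their promoters.

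The labels name the mimic as miR-137, and the mature sequence of that microRNA is shown because every comparison rests on it. In RefSeq (GRCh38.p14) hsa-miR-137-3p has 23 bases and lies on the minus strand at chr1:98046091-98046113. It is printed 5′ to 3′, with the seed, bases 2 to 8, in capitals.

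hsa-miR-137-3p: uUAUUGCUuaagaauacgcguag

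Promoters of the genes were searched for 3 spellings of the E2F-type motif, TTTGGCGC, TTTCGCGC and TTTCCCGC, on both strands, in windows from 250 bases before to 50 bases after each RefSeq start site. Of the 44 genes, 38 had a window, and 21 of these, 55.3%, held at least 1 match. Over all 27305 genes with a window the share was 3.30%, and over 35116 windows it was 2.74%. The letters TTTCCCGC were found at 11 of the 38 genes, TTTGGCGC at 8 and TTTCGCGC at 5, and the spellings can overlap on opposite strands. Among 37 other replication genes with a window, which are described further below, 12 held a match. These are matches of letters with no binding measured, and no test was made on them.

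Windows of up to 60 bases that end before the start site are printed for 6 genes whose values are given below, 5′ to 3′ on the strand of the gene (GRCh38.p14, RefSeq), with the matches in capitals. They are shown so that the shared letters can be read beside the changes. The stretch of MCM6 lies at chr2:135876500-135876559 on the minus strand, that of GINS2 at chr16:85688955-85689011 on the minus strand, that of CDT1 at chr16:88803728-88803787 on the plus strand, that of POLA1 at chrX:24693755-24693814 on the plus strand, that of PCNA at chr20:5126648-5126707 on the minus strand and that of TYMS at chr18:657588-657647 on the plus strand.

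MCM6: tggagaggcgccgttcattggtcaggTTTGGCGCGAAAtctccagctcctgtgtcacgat

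GINS2: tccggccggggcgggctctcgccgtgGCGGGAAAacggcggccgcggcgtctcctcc

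CDT1: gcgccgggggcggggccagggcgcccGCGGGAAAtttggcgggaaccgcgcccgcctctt

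POLA1: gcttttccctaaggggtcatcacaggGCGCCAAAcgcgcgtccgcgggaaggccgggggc

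PCNA: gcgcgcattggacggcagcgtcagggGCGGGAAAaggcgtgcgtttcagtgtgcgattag

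TYMS: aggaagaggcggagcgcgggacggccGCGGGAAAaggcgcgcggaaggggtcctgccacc

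The MCM6 window holds overlapping matches on both strands, and a further pair of matches lies upstream of it in the same promoter. The windows of GINS2, CDT1, PCNA and TYMS share the letters GCGGGAAA, the reverse complement of TTTCCCGC. Over the 21 genes, 25 of 29 matches started before the start site and 19 within 100 bases before it.

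**Figure D1:**
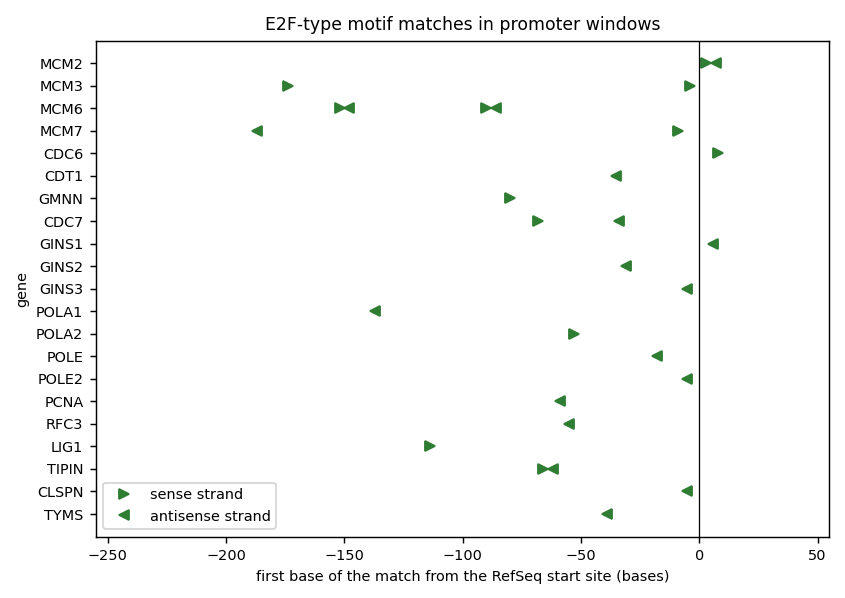
Matches to the 3 E2F-type motif spellings in the promoter windows of the 21 genes that hold one. The x axis is the distance in bases from the RefSeq start site to the first base of the match, each row is a gene, and right and left pointing marks are the sense and antisense strand. Of 29 matches, 25 start before the start site.

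Some libraries stood apart from the others, and the results that rest on them are given with and without them. The libraries held between 10156675 and 45134766 counted reads, of which between 37411 and 320985 lay on the 44 genes. The smallest count of any of these genes in any library was 99 reads. In U343 RNASeq, the summed level of 12 interferon-response genes was 142 and 148 CPM (read counts scaled to a common library size) in the control libraries, 131 CPM in miR-137 replicate 1 and 12203 CPM in miR-137 replicate 2. In the other 3 experiments this sum ran from 118 to 207 CPM in the control and from 10571 to 11859 CPM in the miR-137 libraries. The 2 control libraries of U251 RIPSeq differed from each other by a median absolute log2 ratio of 0.61, against 0.06 to 0.20 in the other groups. These medians are over the tested genes with a mean of at least 1 CPM. All 7 glial and glioma markers examined were above 1 CPM in the control libraries of both lines. In U251 RNASeq 5 of the 7 were lower with miR-137 and 0 higher, among them the glial filament gene GFAP at -3.18 and S100B at -2.92 on the log2 scale, and their sum went from 12394 and 12774 CPM to 6058 and 6265 CPM. In U343 RNASeq 1 was lower and 2 higher, and the sum was 11865 and 12688 CPM in the controls and 12333 and 14135 CPM with miR-137. In RIPSeq 0 were called in U251, and 2 were lower and 1 higher in U343. The part of these markers in the results below was not tested. Of 5 markers of other cell types in the tables, PTPRC, PECAM1, EPCAM and ALB were below 1 CPM in the controls, with ALB at 0 reads in some libraries, and CD68 was above it. The sum of these 5 markers was 8.62 and 11.01 CPM in the U251 RNASeq controls and 88.2 and 79.8 CPM with miR-137, and in U343 RNASeq 4.57 and 4.46 CPM and then 5.46 and 35.2 CPM. In RIPSeq it was 19.3 and 15.1 CPM and then 90.0 and 102 CPM in U251, and 4.41 and 3.81 CPM and then 111 and 92.9 CPM in U343. CD68, a marker of macrophages and microglia, gave most of these reads in every library, and its part in the results below was not tested either.

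The share of all counted reads that fell on the 44 genes was lower with miR-137 in every experiment. In U251 RNASeq it was 0.533% and 0.528% in the control libraries and 0.365% and 0.393% with miR-137. In U343 RNASeq it was 0.711% and 0.717% in the controls and 0.270% and 0.296% with miR-137. The share of 0.270% was that of miR-137 replicate 1, the library with control levels of interferon-response genes. That is a single library, and the part of the interferon response in these results was not tested. In U251 RIPSeq the share was 0.481% and 0.436% in the controls and 0.373% and 0.369% with miR-137, and in U343 RIPSeq it was 0.600% and 0.646% in the controls and 0.308% and 0.368% with miR-137. The groups did not overlap in any of the 4 experiments. The share weights genes by their reads. Gene by gene in U251 RIPSeq, both miR-137 libraries lay below both controls for 19 of the 44 genes. They lay above for 5, and the groups overlapped for 20. How many of all genes lay apart was not counted. In these bulk samples, fewer cells in S phase and less of each RNA per cell cannot be told apart.

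**Figure D2:**
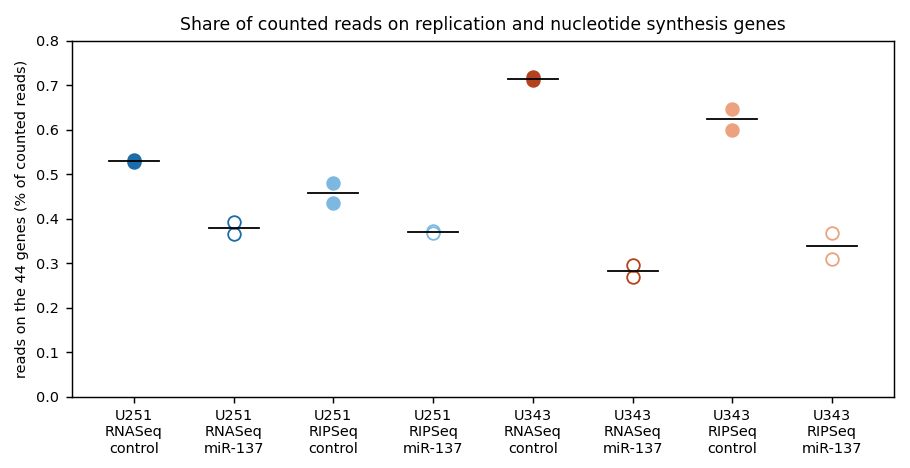
Share of counted reads on the 44 genes in each of the 16 libraries, in percent. Filled circles are control and open circles miR-137 libraries, 2 a group, and the bar is their mean. The miR-137 libraries lie below the controls in every experiment, from 0.711% and 0.717% to 0.270% and 0.296% in U343 RNASeq.

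In the RNASeq of U251, 31 of the 44 genes were lower with miR-137 and 0 were higher (edgeR quasi-likelihood test, adjusted p under 0.05 over all genes). Over all 13052 genes tested, 29% were lower and 28.7% higher. The median log2 fold change was -0.69 over the 44 genes and 0.02 over all genes. With library totals alone in place of TMM scaling, 25 of the 44 genes were lower and 2 higher, GINS3 and POLD3, beside 2458 genes lower and 5432 higher in place of 3780 and 3749, and a joint fit with the RIPSeq libraries called 14 lower, beside 1336 of all 14210 genes. In the RNASeq of U343, 40 genes were lower and 0 higher, where 11.7% of all genes were lower and 8.31% higher, and the median log2 fold change was -1.36 against 0.02. Of the 44 genes, 27 were lower in both lines, and the share of all genes lower in both was not counted.

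In PABP-bound RNA the lines gave different counts. In U343 RIPSeq, 41 of the 44 genes were lower and 0 higher, beside 27.8% of all genes lower and 28.5% higher, with a median log2 fold change of -0.87 against 0.00 over all genes. In U251 RIPSeq, 0 genes were lower and 0 higher, beside 0.263% and 0.944% of all genes. There, 10 genes were lower at an unadjusted p under 0.05 and 0 were higher, where 2828 of all 14087 genes passed in either direction, and DESeq2 called 0 of the 44 and 534 lower and 589 higher of all. Without control replicate 1, 33 genes were lower and 3 higher, beside 5052 and 4689 of all 14309 genes. Without control replicate 2, 22 were lower and 21 higher, beside 5366 and 6304 of all 15682. Most genes of any kind were thus called once either control was left out. The median log2 fold change was -0.32 against -0.02 over all genes. Of the 44 genes, 26 were lower in the RNASeq of both lines and in U343 RIPSeq, and each gene was lower in at least 1 of these 3 experiments. These joint counts were not made over all genes, so they have no share to be read beside.

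The U343 RNASeq result was computed without each unlike library. Such a fit takes its spread from the other group alone, so its counts hold no spread of the group left with a single library. Over all genes, the median absolute log2 ratio of the pair was 0.10 in the controls and 0.20 with miR-137. Without miR-137 replicate 1, the library with control levels of interferon-response genes, 43 genes were lower, as were 3152 of all 15509 genes, and the median over the 44 was -1.19 on the log2 scale. Without replicate 2, 43 were lower with a median of -1.50, and 2951 of all 15281 genes were lower. Against the mean of the controls, the median log2 ratio of the 44 genes was -1.50 in replicate 1 and -1.18 in replicate 2. Over all genes it was -0.004 and 0.004. All 44 genes lay below both controls in each replicate, but how many of all genes did so was not counted. When a control library was left out instead, 0 of the 44 genes and 0 of all genes were called.

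**Figure D3:**
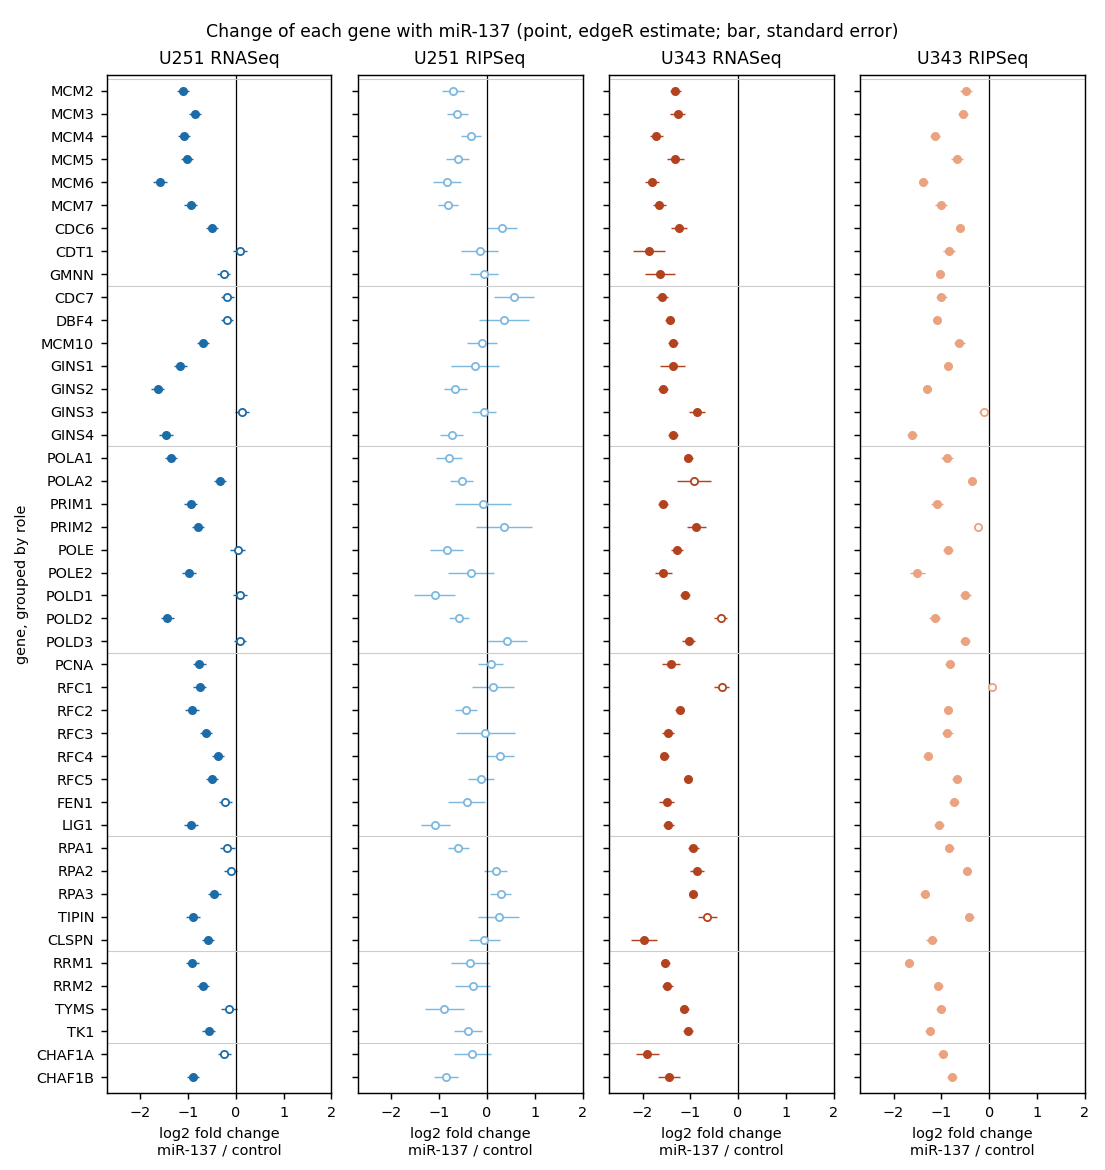
Log2 fold change, miR-137 over control, of each of the 44 genes in the 4 experiments, from edgeR. Genes are grouped by role between the grey lines, filled points have an adjusted p under 0.05 (31, 0, 40 and 41 genes from left to right), and bars are standard errors. The U343 panels lie almost wholly left of 0, and the U251 RIPSeq estimates scatter with wide bars.

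Of the 9 genes of origin licensing, 7 were lower in U251 RNASeq, 9 in U343 RNASeq and 9 in U343 RIPSeq. The 6 subunits of the MCM helicase, MCM2 to MCM7, were lower in all 3 of these experiments. MCM2 (hg18 chr3:128799943-128823968) stood at 255 and 244 CPM in the U251 RNASeq controls and at 122 and 111 CPM with miR-137. Its fold change there was -1.10 on the log2 scale (SE 0.13, adjusted p = 9.81e-06). In U343 RNASeq its level was 734 and 785 CPM in the controls and 281 and 331 CPM with miR-137 (log2 fold change -1.31, SE 0.12, adjusted p = 0.00822). The fall in U343 RIPSeq was smaller, from 470 and 534 CPM to 320 and 395 CPM (log2 fold change -0.49, SE 0.13, adjusted p = 0.0144). The groups did not overlap in any of these experiments.

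MCM6 (hg18 chr2:136313666-136350481) fell the most of the helicase subunits in each of these 3 experiments. Its level in U251 RNASeq was 99.6 and 80.1 CPM in the controls and 30.4 and 29.1 CPM with miR-137 (log2 fold change -1.59, SE 0.15, adjusted p = 1.02e-06). In U343 RNASeq it went from 104 and 112 CPM to 27.2 and 34.9 CPM (log2 fold change -1.80, SE 0.15, adjusted p = 0.00771). In U251 RIPSeq the estimate was -0.84 with an SE of 0.30 and did not pass the test (adjusted p = 0.226), although its control levels of 55.6 and 81.7 CPM lay above the miR-137 levels of 37.5 and 39.2 CPM.

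CDC6 (hg18 chr17:35697672-35712939), which loads the helicase, fell less in U251 than in U343 RNASeq, by the test of the difference described further below. In U251 RNASeq it was at 128 and 134 CPM in the controls and 90.6 and 95.2 CPM with miR-137, and in U343 RNASeq at 80.4 and 82.2 CPM and then 29.6 and 39.5 CPM. The log2 fold changes were -0.49 (SE 0.12, adjusted p = 0.00379) and -1.23 (SE 0.16, adjusted p = 0.0154). In U251 RIPSeq the unlike controls, 70.0 and 110 CPM, both lay below the miR-137 libraries at 112 and 113 CPM, and the estimate of 0.32 (SE 0.31) did not pass the test.

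CDT1 (hg18 chr16:87397687-87403167), the other loader of the helicase, and its inhibitor geminin (GMNN) were not called in U251 RNASeq. CDT1 was at 29.1 and 24.0 CPM in the U251 RNASeq controls and 29.4 and 27.0 CPM with miR-137, so the groups overlapped. The U343 RNASeq levels went from 74.0 and 86.1 CPM to 15.2 and 29.0 CPM, a log2 fold change of -1.85 (SE 0.34, adjusted p = 0.0295). The miR-137 libraries lay apart from each other there, and both lay below the controls. The log2 fold change of GMNN was -0.26 in U251 RNASeq (adjusted p = 0.125) and -1.63 in U343 RNASeq (adjusted p = 0.0334).

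Of the 7 genes of origin firing, 4 were lower in U251 RNASeq, 7 in U343 RNASeq and 6 in U343 RIPSeq. The GINS complex travels with the helicase, and 3 of its 4 subunits were lower in the RNASeq of both lines while GINS3 did not pass the test in U251 RNASeq. GINS2 (hg18 chr16:84268782-84280089) had the largest fall of the 44 genes in U251 RNASeq, from 86.1 and 105 CPM to 30.1 and 31.2 CPM (log2 fold change -1.64, SE 0.14, adjusted p = 6.6e-07). In U343 RNASeq it went from 97.3 and 112 CPM to 34.1 and 36.4 CPM (log2 fold change -1.57, SE 0.11, adjusted p = 0.00687). GINS4 went from 63.9 and 61.0 CPM to 19.7 and 25.7 CPM in U251 RNASeq and from 47.5 and 55.3 CPM to 16.2 and 17.5 CPM in U343 RIPSeq, with log2 fold changes of -1.46 and -1.61 (adjusted p = 3.28e-06 and 1.82e-05). The log2 fold change of GINS3 was 0.13 in U251 RNASeq (adjusted p = 0.448), -0.86 in U343 RNASeq and -0.12 in U343 RIPSeq, where it was not called (adjusted p = 0.33).

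The kinase CDC7 and its activating partner DBF4 were not called in U251 RNASeq, at -0.18 and -0.19 on the log2 scale. In U343 RNASeq they fell by 1.59 and 1.43, and in U343 RIPSeq by 1.00 and 1.10. CDC7 was at 70.1 and 71.6 CPM in the U343 RNASeq controls and at 21.6 and 25.3 CPM with miR-137. MCM10, which joins helicase and polymerase alpha, was lower in both lines, with log2 fold changes of -0.69 and -1.36 in RNASeq.

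Of the 9 polymerase and primase genes, 6 were lower in U251 RNASeq, 7 in U343 RNASeq and 8 in U343 RIPSeq. POLA1 (hg18 chrX:24621977-24925023), the catalytic subunit of polymerase alpha, which starts each new strand with primase, went from 163 and 162 CPM to 65.2 and 61.5 CPM in U251 RNASeq, a log2 fold change of -1.36 (SE 0.13, adjusted p = 1.15e-06). Its level in U343 RNASeq went from 51.9 and 53.5 CPM to 25.0 and 26.1 CPM (log2 fold change -1.04, SE 0.09, adjusted p = 0.00802). The primase subunits PRIM1 and PRIM2 were also lower in the RNASeq of both lines. POLE2 (hg18 chr14:49180029-49224685), a subunit of polymerase epsilon, was among the 3 largest falls of U343 RIPSeq, from 8.69 and 9.00 CPM to 2.72 and 3.50 CPM (log2 fold change -1.51, SE 0.16, adjusted p = 0.000162).

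The subunits of polymerases delta and epsilon did not move alike in the 2 lines, and the difference passed the test for POLE, POLD1, POLD2 and POLD3. The log2 fold changes of the catalytic subunits POLE and POLD1 were 0.04 and 0.08 in U251 RNASeq (adjusted p = 0.844 and 0.654) and -1.28 and -1.11 in U343 RNASeq. POLD2, the second subunit of polymerase delta, went the other way. It was at 327 and 352 CPM in the U251 RNASeq controls and at 125 and 127 CPM with miR-137 (log2 fold change -1.43, SE 0.13, adjusted p = 9.94e-07). In U343 RNASeq it was at 356 and 353 CPM and then 308 and 243 CPM (log2 fold change -0.36, SE 0.14, adjusted p = 0.147), and in U343 RIPSeq it fell by 1.14.

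**Figure D4:**
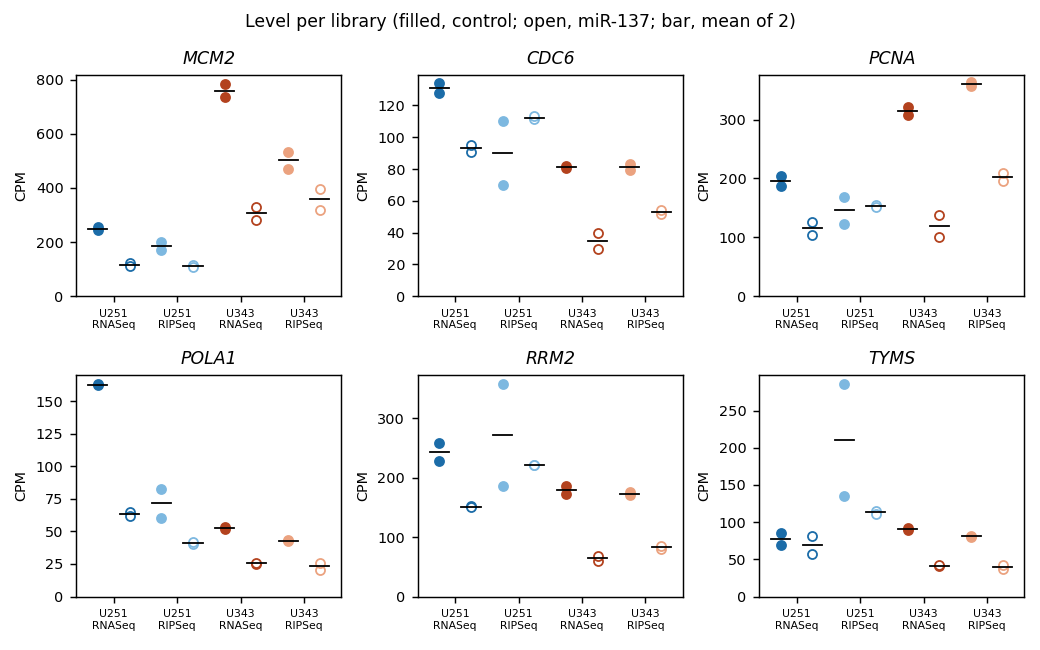
Level of MCM2, CDC6, PCNA, POLA1, RRM2 and TYMS in every library, in CPM. Filled circles are control and open circles miR-137 libraries, the bar is the mean of 2, and each axis starts at 0. In U343 the miR-137 libraries lie below the controls for all 6 genes, and in U251 RIPSeq the control libraries lie far apart for RRM2 and TYMS.

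Of the 8 genes of the clamp, the clamp loader and the lagging strand, 7 were lower in each of U251 RNASeq, U343 RNASeq and U343 RIPSeq. PCNA (hg18 chr20:5043599-5055268) was at 186 and 204 CPM in the U251 RNASeq controls and 103 and 127 CPM with miR-137 (log2 fold change -0.76, SE 0.14, adjusted p = 0.000378). In U343 RNASeq it went from 321 and 307 CPM to 99.9 and 137.3 CPM (log2 fold change -1.41, SE 0.18, adjusted p = 0.0146). In U251 RIPSeq its groups overlapped, at 123 and 169 CPM in the controls and 155 and 152 CPM with miR-137. The clamp loader subunits RFC2 to RFC5 were lower in all 3 of these experiments. RFC1, the large subunit of the loader, was lower in U251 RNASeq at -0.76 but was not called in U343 RNASeq at -0.35 or in U343 RIPSeq at 0.07. LIG1, the ligase that seals the lagging strand, was lower in all 3 experiments, and the flap nuclease FEN1 was lower in both U343 experiments and not called in U251 RNASeq, at -0.22 (adjusted p = 0.179).

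Of the 5 genes of single-strand binding and fork protection, 3 were lower in U251 RNASeq, 4 in U343 RNASeq and 5 in U343 RIPSeq. CLSPN (hg18 chr1:35974405-36008138), which relays replication stress to the checkpoint kinase, had the largest fall of the 44 genes in U343 RNASeq. It went from 54.8 and 54.8 CPM to 10.5 and 17.4 CPM, a log2 fold change of -1.97 (SE 0.27, adjusted p = 0.0159). In U251 RNASeq the values were 87.5 and 91.9 CPM and then 63.0 and 57.2 CPM (log2 fold change -0.58, SE 0.13, adjusted p = 0.00164). RPA1 and RPA2, of the complex that coats single-stranded DNA, were not called in U251 RNASeq, at -0.18 and -0.10, and fell by 0.94 and 0.86 in U343 RNASeq.

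Of the 4 genes of nucleotide synthesis, 3 were lower in U251 RNASeq, and all 4 in U343 RNASeq and U343 RIPSeq. RRM2 (hg18 chr2:10180146-10188997), the regulated subunit of ribonucleotide reductase, was at 258 and 228 CPM in the U251 RNASeq controls and 152 and 150 CPM with miR-137 (log2 fold change -0.69, SE 0.13, adjusted p = 0.000526). The U343 RNASeq levels went from 173 and 186 CPM to 60.5 and 68.3 CPM (log2 fold change -1.48, SE 0.11, adjusted p = 0.00711). RRM1 (hg18 chr11:4072500-4116682) had the largest fall of the 44 genes in U343 RIPSeq, from 327 and 329 CPM to 102 and 103 CPM (log2 fold change -1.68, SE 0.09, adjusted p = 6.41e-06). Its replicates lay close together within both groups.

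TYMS (hg18 chr18:647604-663499), which makes thymidylate, was not called in U251 RNASeq. Its levels there were 84.8 and 68.8 CPM in the controls and 56.9 and 81.5 CPM with miR-137, and the groups overlapped. In U343 RNASeq it went from 91.9 and 88.8 CPM to 40.7 and 42.3 CPM, a log2 fold change of -1.12 (SE 0.09, adjusted p = 0.00711), and in U343 RIPSeq from 80.5 and 81.6 CPM to 37.6 and 42.3 CPM. The gene overlaps ENOSF1 on the opposite strand by 956 bases in the hg18 coordinates of the U343 tables, and no source used here says that strand entered the counting.

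Both subunits of chromatin assembly factor were lower in U343, and CHAF1B but not CHAF1A in U251 RNASeq. CHAF1A (hg18 chr19:4353660-4394394) was at 48.5 and 44.9 CPM in the U251 RNASeq controls and 36.7 and 42.2 CPM with miR-137 (log2 fold change -0.24, SE 0.14, adjusted p = 0.143). Its level in U343 RNASeq went from 145 and 161 CPM to 32.5 and 49.5 CPM (log2 fold change -1.90, SE 0.23, adjusted p = 0.0133).

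The difference between the lines was tested as such, in a model with cell line, transfection and their interaction. In RNASeq, 25 of the 44 genes differed, beside 25.2% of all 15550 genes tested. The log2 fold change was lower in U343 for 24 of the 25. Of all genes, 12.7% were called lower in U343 and 12.5% higher. The size of the difference, U343 minus U251, was -1.95 for CDT1 (SE 0.38, adjusted p = 0.0082), -1.66 for CHAF1A (SE 0.27, adjusted p = 0.00417) and -1.42 for CDC7 (SE 0.17, adjusted p = 0.00158). POLD2 was the exception, with a difference of 1.06 (SE 0.20, adjusted p = 0.00698). For MCM2, MCM6, GINS2 and GINS4 the difference was between -0.22 and 0.10 and did not pass the test. Without U343 RNASeq miR-137 replicate 1 the count was 25, beside 5030 of all 15392 genes, and without replicate 2 it was 32, beside 5676 of all 15375. Without U343 control replicate 1 or 2 it was 11 and 12, beside 2024 and 1877 of all genes, and without any 1 of the U251 libraries it ran from 14 to 16, beside 2028 to 2984 of all. The genes CDC7, CDT1, CHAF1A, DBF4, FEN1, POLD1, POLD2, POLD3, POLE and RFC4 were called in all 8 of these fits. cDNA was primed with random hexamers for U251 and made with the TotalScript kit for U343, both before Nextera tagging, and line and cDNA method cannot be told apart.

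**Figure D5:**
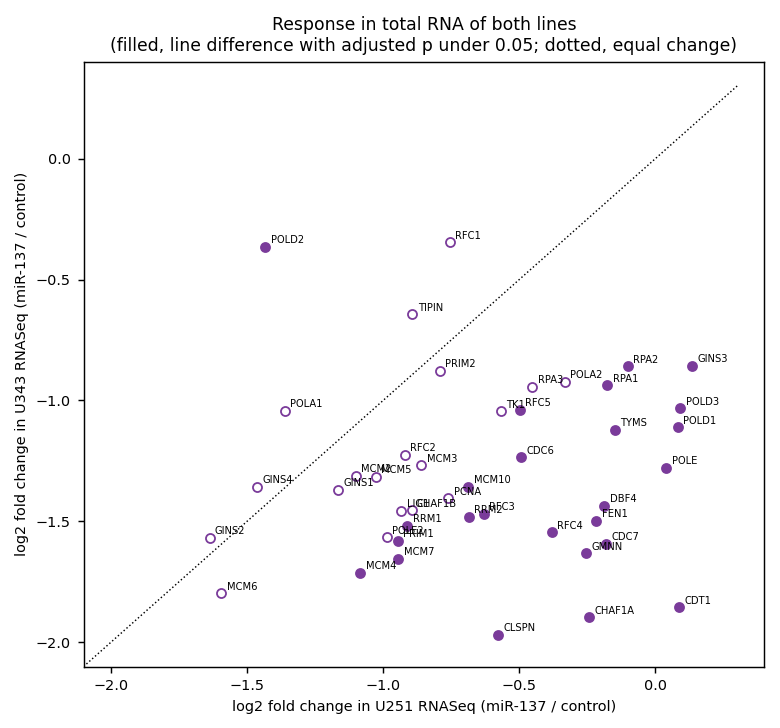
Log2 fold change of each of the 44 genes in U343 RNASeq (y axis) against U251 RNASeq (x axis). Filled points are the 25 genes whose change differed between the lines (adjusted p under 0.05), and the dotted line marks equal change. Most points lie below it, with CDT1 at 0.09 and -1.85, and POLD2 lies above it at -1.43 and -0.36.

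In RIPSeq, 2 of the 44 genes, 4.5%, differed between the lines, which is near the 3.28% of all genes. RPA3, the small subunit of the single-strand binding complex, had a difference of -1.58 (SE 0.22, adjusted p = 0.0192), and RFC4 of -1.52 (SE 0.29, adjusted p = 0.0403). RPA3 was at 75.3 and 79.3 CPM in the U251 RIPSeq controls and 97.2 and 91.0 CPM with miR-137, and in U343 RIPSeq at 39.2 and 41.8 CPM and then 16.2 and 15.5 CPM. With the unlike U251 RIPSeq controls left out in turn the count was 25 without replicate 1, beside 5504 of all 16323 genes, and 30 without replicate 2, beside 9113 of all 17249. Without any 1 of the other 6 libraries it was 0, and 2 or 3 of all genes were called.

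The log2 fold change was lower in total RNA than in PABP-bound RNA for 39 of the 44 genes in U343 and for 34 in U251. This was not counted over all genes. The median difference, RIPSeq minus RNASeq, was 0.50 over the 44 genes and -0.002 over all genes in U343. In U251 it was 0.46 and -0.04. The interaction of assay and transfection called 0 of the 44 genes in U343 and 0 in U251, beside 0.00649% and 0.134% of all genes. At an unadjusted p under 0.05 it gave 28 of the 44 in U343, where 2712 of all 15413 genes passed, and 9 in U251, where 2688 of all 14210 passed, so that the U251 count lay near the share of all genes. DESeq2 called 8 in U343, beside 272 genes with a negative and 127 with a positive difference, and 1 in U251, beside 403 and 314. Without U343 RNASeq miR-137 replicate 2 the interaction called 28 in U343, beside 3113 of all 15690 genes, and without replicate 1 it called 0, beside 30 of all. In U251 it called 13 without RIPSeq control replicate 1, beside 2888 of all 14355 genes, and 33 without replicate 2, beside 8869 of all 15287. For MCM2, the difference, RIPSeq minus RNASeq, was 0.82 in U343 (adjusted p = 0.196).

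In the controls alone, PABP-bound and total RNA were compared to see how the genes stood in cells given the control mimic. In U343, 12 of the 44 genes (27.3%) were lower and 13 (29.5%) higher in PABP-bound RNA, near the 24.2% and 24.4% of all genes. The median log2 ratio was -0.05 against -0.02. RFC1 was lowest at -0.93 (SE 0.07, adjusted p = 9.01e-05) and RFC5 highest at 0.64 (SE 0.07, adjusted p = 0.000368). The count higher was 6 without RIPSeq control replicate 2, beside 2852 of all 15306 genes, and 7 without RNASeq control replicate 1, beside 2651 of all 15086. In U251, 0 genes were lower and 0 higher, beside 6.14% and 7.87% of all genes, 11 passed an unadjusted p under 0.05 where 4882 of all 13242 genes did, a smaller share than that of all genes, and DESeq2 called 5 lower and 3 higher, beside 1670 and 1945 of all. Without RIPSeq control replicate 1, 18 were lower and 5 higher there, beside 3564 and 3695 of all 13220 genes, and without replicate 2, 24 and 10, beside 5459 and 5709 of all 14711.

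The rule of the study for down-regulated genes pairs every control with every miR-137 library of an experiment. It asks that Fisher's exact test give an adjusted p below 0.001 and an odds ratio above 2 in each of the 4 pairs, and so compares reads rather than the spread of replicates. It called 33 of the 44 genes lower in U343 RNASeq (2.88% of all genes), 8 in U343 RIPSeq (3.4%), 4 in U251 RNASeq (2.21%) and 0 in U251 RIPSeq (1.49%). In the other direction it called 0 of the 44 genes in each, where the shares of all genes were 1.51%, 4.83%, 6.14% and 3.47% in the same order. The 4 genes of U251 RNASeq were GINS2, MCM6, POLA1 and POLD2. Those of U343 RIPSeq were GINS2, GINS4, MCM6, POLE2, RFC4, RPA3, RRM1 and TK1, and 21 genes met the rule without miR-137 replicate 2, beside 1015 of all 20626 genes. In U251 RIPSeq 4 were lower and 4 higher without control replicate 2, beside 1372 and 2299 of all 20314.

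The changes are given apart for genes with and without the E2F-type letters, with no test of the difference. In U343 RNASeq the median log2 fold change was -1.41 over the 21 genes with a match, of which 19 were lower, and -1.36 over the 17 genes with a window and no match, of which 15 were lower. In U251 RNASeq the medians were -0.76 and -0.69, with 15 and 12 genes lower.

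A further list held 45 genes with roles in replication or its supply, such as origin recognition and repair at the fork. It was chosen with earlier results of these data known, so its counts are not independent of those above. In U251 RNASeq 28 of 41 were lower and 6 higher, beside 29% and 28.7% of all genes. In U343 RNASeq 36 of 44 were lower and 1 higher, beside 11.7% and 8.31%. The counts in U343 RIPSeq were also 36 of 44 lower and 1 higher, beside 27.8% and 28.5%. In U251 RIPSeq 0 of 41 were called, beside 0.263% of all genes lower and 0.944% higher. The cyclin that opens S phase, CCNE1, changed by -2.64 in U251 RNASeq and -2.08 in U343 RNASeq. The nuclease EXO1 changed by -2.27 in U343 RNASeq and topoisomerase TOP2A by -1.98 in U343 RIPSeq. The genes that rose most were TOP1 and RECQL4 in U251 RNASeq, at 0.83 and 0.62, POLD4 in U343 RNASeq at 0.80 and ORC4L in U343 RIPSeq at 0.29. RECQL4 fell by 1.71 in U343 RNASeq, opposite to its direction in U251.

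Reads of some of these genes could be shared with others. In GRCh38.p14, 11 of the 44 genes have pseudogenes that carry their symbol, with 4 for PCNA, 3 each for DBF4, RPA2 and RRM2 and 2 each for TYMS, RPA3 and TIPIN. By the hg18 coordinates, 6 genes overlap another gene, among them MCM7, which holds MIR25, MIR93 and MIR106B. How reads that fit several places were counted is not given in the sources used here, and the values of these genes are uncertain to that extent.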

How the data were processed

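Total RNA and PABP-bound RNA were sequenced after ribosomal depletion. The authors aligned the reads to hg18 and deposited counts of reads per RefSeq gene, with no normalization. Groups came from the cell line, assay and transfection in the labels. The duplicate line of SLC35E2 in the U251 tables was dropped. The 44 genes and the further lists were chosen with earlier results of these data known.

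Each experiment was fitted on all its genes with edgeR 4.0.16 (TMM scaling, filterByExpr, quasi-likelihood F test), and called at p under 0.05 after Benjamini-Hochberg adjustment. CPM values are scaled by TMM factors and not by length, so levels are compared between samples only. Log2 ratios of single miR-137 libraries to the mean of the controls used a pseudocount of 0.1 CPM. Interactions used the 8 libraries of a line or of an assay. Alternatives were DESeq2 1.42.0, upper-quartile scaling, library totals alone, no filter, a mean of at least 50 reads, a joint fit of 8 libraries, a replicate block and each library left out. Per-library values are given for the 3 largest falls per experiment among called genes with at least 50 reads and the same direction in all 4 pairs (0 rose), and for MCM2, CDC6, PCNA, RRM2, TYMS and POLA1; CDC7, POLD2 and RPA3 were added after their values were seen. Of the further list, the 2 largest falls and rises per experiment are named, except 1 gene that is not reported here. The scripts were tested on simulated data. Depth ranged from 10156675 to 18224061 counted reads in U251 RNASeq, 22359794 to 30731476 in U251 RIPSeq, 37952273 to 45134766 in U343 RNASeq and 37736206 to 45055184 in U343 RIPSeq.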

Additional observations from a re-analysis of the deposited data

Results flagged for a closer look

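The response to miR-137 differed between U343 and U251 for 25 genes in RNASeq and 2 in RIPSeq by the edgeR interaction test (adjusted p under 0.05 over all genes). Beside these stood 25.2% and 3.28% of all genes, so the RIPSeq count lay near the share of all genes. With the replicate block the RIPSeq count was 0, beside 140 of all genes, and its dependence on single libraries is given above. The difference in log2 fold change, U343 minus U251, in RNASeq was -1.95 for CDT1, -1.38 for GMNN, -0.75 for CDC6, -0.72 for MCM7 and -0.64 for MCM4 among the licensing genes. Among the genes of origin firing it was -1.42 for CDC7, -1.26 for DBF4, -1.0 for GINS3 and -0.68 for MCM10. It was -1.33 for POLE, -1.20 for POLD1, -1.13 for POLD3 and -0.64 for PRIM1 among the polymerases and primase, with POLD2 in the other direction at 1.06. Of the clamp loader and lagging strand genes it was -1.29 for FEN1, -1.17 for RFC4, -0.85 for RFC3 and -0.55 for RFC5. For CLSPN, RPA1 and RPA2 it was -1.40, -0.77 and -0.76, for TYMS, RRM2 and RRM1 it was -0.98, -0.80 and -0.61, and for CHAF1A it was -1.66. In RIPSeq it was -1.58 for RPA3 and -1.52 for RFC4. Line and library method cannot be told apart in these values.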

How the results depend on the processing

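The counts of lower genes in U251 RNASeq, U343 RNASeq and U343 RIPSeq stayed within 1.5 times under DESeq2, other scalings, other filters and the replicate block. With library totals alone, under which the all-gene median in U251 RNASeq went from 0.02 to 0.28 (log2), 25 genes were lower and 2, GINS3 and POLD3, higher there, while the 44 genes stayed 0.70 below the median of all genes in either scaling. The joint fit of 8 libraries called 14 lower in U251 RNASeq and 8 in U251 RIPSeq, beside 1336 and 1213 of all 14210 genes. With 1 library left out, the lone sample of a group is assumed to vary like the other group, and the calls over all genes shift as well. The median log2 fold change over the 44 genes was then -0.69 to -0.66 in U251 RNASeq and -1.50 to -1.19 in U343 RNASeq. In U343 RIPSeq it was -1.02 to -0.81. The count lower then ran from 28 to 32 in U251 RNASeq, 0 to 43 in U343 RNASeq (0 without either control) and 39 to 41 in U343 RIPSeq. In U251 RIPSeq it ran from 0 to 33 lower and 0 to 21 higher, with 33 and 3 without control replicate 1 and 22 and 21 without control replicate 2. The assay interaction ran from 0 to 33 in U251 (13 and 33 without the RIPSeq controls 1 and 2) and 0 to 28 in U343, with 1 and 8 by DESeq2. The line interaction ran from 11 to 32 in RNASeq, and from 0 to 30 in RIPSeq, where DESeq2 gave 6 and the replicate block 0. PABP-bound against total RNA in U251 gave 5 lower and 3 higher by DESeq2, 6 and 2 with the replicate block, and 0 to 24 lower and 0 to 10 higher with 1 library left out, from 18 and 5 without RIPSeq control replicate 1 to 24 and 10 without replicate 2; in U343 the count higher ran from 6 to 10, lowest without RIPSeq control replicate 2, and was 7 without RNASeq control replicate 1. By the rule of the study with an odds ratio over 1.5, 10 genes were lower in U251 RNASeq, beside 1024 in place of 448 of all 20314. In U343 RIPSeq 28 were lower, beside 1677 in place of 702 of all 20626. With TMM-scaled totals 7 were lower in U251 RNASeq, beside 796 of all 20314. With 1 library left out the rule gave 0 to 4 lower and 0 to 4 higher in U251 RIPSeq (4 without control replicate 2) and 9 to 21 lower in U343 RIPSeq (21 without miR-137 replicate 2). A lower odds ratio or fewer pairs can only add genes to those that the rule calls. The cause of the other shifts was not tested. The replicate numbers correlated by 0.03 to 0.28 over 2 pairs, which does not show that they pair the libraries, and apart from the values above the replicate block left the counts within 1.5 times. Each of the 44 genes held at least 99 reads in every library, and what limits the calls was not tested.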
